A study of Mus musculus with 8 samples.

Results

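Metalloproteases of the ADAM, ADAMTS and MMP families and their inhibitors were examined as a list of 42 named mouse genes, which leaves out 33 other genes of the same families. The list held 12 ADAMTS proteases, 5 ADAMTS-like proteins, 9 ADAMs, 12 matrix metalloproteinases and 4 inhibitors. A probe set annotated to the gene alone was found for 37 of the 42, among 13307 genes with such a probe set. Adamts2, Adamts8, Adamtsl2, Mmp10 and Mmp15 had none and were not analysed here. Where a gene had several probe sets, the one with the highest mean over all arrays stood for it. Of the 37, 30 lay above the floor used for testing, a mean log2 signal of 6.05 (the 40th percentile of all non-control probe sets), and 7 lay below it.

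The genes were measured in primary mouse embryonic fibroblasts (MEFs), cells cultured from mouse embryos. Total RNA came from 4 Cry1-/-|Cry2-/- lines (Cry DKO), which lack both cryptochromes, the main repressors of the circadian transcription loop, and from 4 wild-type lines (WT). Each array stood for an independent cell line of its genotype, and the embryos were close to C57BL/6J, bred from BL6/129 mice by more than 7 backcrosses. Cells of both genotypes were proliferating, unsynchronised and untreated, in medium with 10% serum under 3% oxygen, so each array averages over circadian phases. The labels state neither the age nor the sex of the embryos. The comparison asks which genes differ in level between fibroblasts with and without cryptochromes.

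These enzymes use a zinc ion to cut proteins of the extracellular matrix and of the cell surface. MMPs and ADAMTS proteases are mostly secreted and act on collagens, fibronectin, fibrillin-rich fibres and the large proteoglycans aggrecan and versican, while ADAMs are membrane proteins that release growth factors, cytokines and receptors from the cell surface. TIMPs bind the active site of the proteases, RECK restrains several MMPs at the membrane, and fibroblasts are a main source of both the enzymes and the inhibitors.

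Arrays of lines of the same genotype correlated at 0.982 to 0.991 over the 9515 tested genes and those of different genotypes at 0.972 to 0.986, a description across genes of each array. As a check of the genotype labels, Per2, a clock gene that cryptochromes repress, averaged 8.37 ± 0.10 in Cry DKO and 5.53 ± 0.29 in WT lines (SD, n = 4 each). Cry1 averaged 6.29 ± 0.31 in Cry DKO and 6.79 ± 0.40 in WT, and Cry2 averaged 6.87 ± 0.20 in Cry DKO and 7.20 ± 0.18 in WT. Neither Cry transcript passed the limma threshold (adjusted p = 0.168 for Cry1 and 0.132 for Cry2), and where their probes lie relative to the deletions is not given, so the Cry probe sets do not check the labels. All lines carried high signal for the fibroblast genes Col1a1, Col1a2, Col3a1, Fn1 and Vim, but Pdgfra, Dcn and Lum, also used as fibroblast markers, lay below the floor. All 18 macrophage and blood cell markers lay above it by their means over all arrays. The mean of the 18 spanned 8.72 to 9.66 in Cry DKO lines and 8.08 to 8.71 in WT lines. The lowest single value of any of the 18 was 5.63 (Itgam in WT 2), below the floor, so not every marker was above it in every line.

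Among the 30 tested members, 1 rose and 7 fell in Cry DKO lines at an adjusted p of 0.05 (limma, Benjamini-Hochberg over all tested genes). The called members make up 26.7% of the 30. The background over all 9515 genes was 9.17% called, 4.95% higher and 4.22% lower in Cry DKO. The members were not drawn from their families blind to these data, so their share describes the list and tests nothing about the families. Adam8 rose. Adamts4, Adamts10, Adamts12, Adamtsl5, Mmp2, Mmp23 and Timp2 fell, which spreads the lower calls over all families except the ADAMs. The other 22 members did not pass, and 13 of the 30 had an unadjusted p under 0.05. The mean was higher in Cry DKO for 10 members and lower for 20, with a median difference of -0.08 (log2), beside -0.01 over all tested genes. The median size of the difference, regardless of sign, was 0.22 for the members and 0.11 for all tested genes. The values of the 4 Cry DKO and the 4 WT lines did not overlap for 10 members, or 33.3%, against a background of 16.8%. These were the 8 called genes with Adamts9 and Adam17. RNA from a whole culture was measured, so fewer cells of a type and less RNA per cell cannot be told apart in any of these differences.

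**Figure D1:**
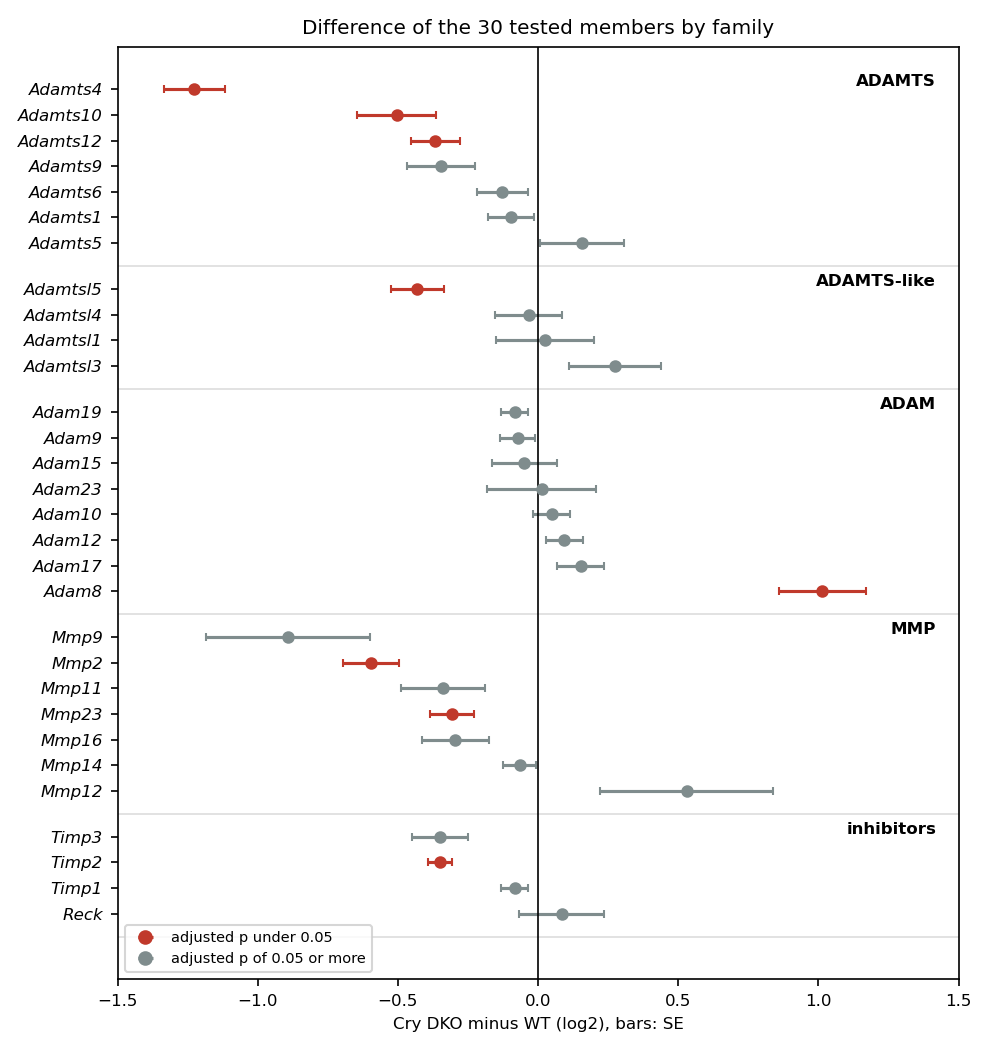
Difference in log2 signal, Cry DKO minus WT, of the 30 tested members (x axis), grouped by family down the page; points are limma estimates, bars are SE and red marks an adjusted p under 0.05. Adam8 (1.01) and Adamts4 (-1.23) lie farthest from 0 on each side among the called members.

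The ADAMTS family held the lowest difference among the 30 tested members. Adamts4 encodes an aggrecanase, a protease of aggrecan and other proteoglycans. Its signal was 6.97, 7.16, 7.24 and 6.88 in Cry DKO lines 1 to 4, against 8.24, 8.10, 8.38 and 8.43 in WT lines 1 to 4. Every Cry DKO line lay below every WT line, with a gap wider than the range within either genotype. The means were 7.06 ± 0.17 in Cry DKO and 8.29 ± 0.15 in WT (SD, n = 4 each), a difference of -1.23 (SE 0.11), or 2.34-fold lower, with an adjusted p of 0.000173 (limma). By size it was in place 11 among the 402 genes called lower. Leaving out any 1 line gave differences of -1.29 to -1.17 with adjusted p-values of 0.000363 to 0.00145 in limma. A dimmer probe set of Adamts4, below the floor and not tested, averaged 4.36 ± 1.08 in Cry DKO and 7.05 ± 0.43 in WT. The lines did not overlap there, but the Cry DKO level is below the floor, so no size is given.

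Adamts10 and Adamts12 were also called lower, by smaller margins. Adamts10, whose product binds fibrillin, measured 7.68, 7.69, 7.65 and 7.70 in Cry DKO lines, against 7.95, 8.69, 8.06 and 8.03 in WT lines. The Cry DKO lines were tightly grouped and below all WT lines, among which WT line 2 stood far above the other 3. Its difference was -0.50 (SE 0.14, adjusted p = 0.0477 in limma). The call was lost on leaving out any line but WT 2, at adjusted p-values of 0.0509 to 0.0956 in limma. Without WT 2 the difference was -0.34 and the adjusted p 0.0400, and without the floor filter it was 0.0551. Adamts12, a protease of cartilage oligomeric matrix protein, measured 9.91, 9.94, 9.94 and 10.01 in Cry DKO lines, against 10.26, 10.33, 10.58 and 10.10 in WT lines. The genotypes did not overlap, with WT 4 the WT line nearest to the Cry DKO lines. Its difference was -0.37 (SE 0.09, adjusted p = 0.0275 in limma). Its call was lost without WT 1, 2 or 3 or without Cry DKO 1, 2 or 3 (adjusted p 0.0527 to 0.0683, differences -0.39 to -0.28).

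The remaining ADAMTS proteases did not pass. Adamts9, which cuts versican, measured 6.32, 6.34, 6.21 and 6.02 in Cry DKO lines and 6.66, 6.53, 6.53 and 6.55 in WT lines. The groups did not overlap, but the difference of -0.35 (SE 0.12) had an adjusted p of 0.0991 in limma, and of 0.0375 without the intensity trend. Adamts5, the other main aggrecanase, averaged 9.94 ± 0.32 in Cry DKO and 9.79 ± 0.22 in WT (difference 0.16, SE 0.15, adjusted p = 0.552 in limma). Its 3 probe sets, all above the floor, gave 0.14, 0.17 and 0.16. Cry DKO line 4 alone, at 10.42, lay above the other 3 Cry DKO lines, the next of which was 9.81, and without it the difference was -0.0009. Adamts1, a protease of aggrecan and versican, differed by -0.10 (adjusted p = 0.513), and Adamts6, the closest relative of Adamts10, by -0.13 (adjusted p = 0.424, both limma). Over the 7 tested ADAMTS genes, 3 fell, none rose and the median difference was -0.35. The difference between the Adamts4 and Adamts5 responses was not tested.

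ADAMTS-like proteins resemble the ADAMTS proteases but lack the catalytic domain, and several bind fibrillin. Of the 4 tested, Adamtsl5 fell and the other 3 did not pass, with a median difference of -0.0047. Adamtsl5 measured 7.07, 7.07, 6.87 and 6.94 in Cry DKO lines, against 7.48, 7.34, 7.34 and 7.50 in WT lines. All Cry DKO lines were below all WT lines. The difference was -0.43 (SE 0.09, adjusted p = 0.0194 in limma). Leaving out WT 1 gave -0.41 with an adjusted p of 0.0541 and leaving out WT 4 gave -0.40 with an adjusted p of 0.0504 (limma), so that the call was lost in each case. Adamtsl5 lies within 10 Mb of Cry1, as do Mmp11 and Timp3, and no member lies that near to Cry2. In the Cry1 window 12 of 176 tested genes were called, beside 9.17% of all 9515 tested genes. The part of this nearness in the 3 differences was not tested.

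Adamtsl3 differed by 0.27 (SE 0.16, adjusted p = 0.326) and Adamtsl4, which binds fibrillin, by -0.03 (adjusted p = 0.895, both limma). For Adamtsl1, probe sets disagreed. The probe set that stands for the gene differed by 0.02 (adjusted p = 0.952 in limma), whereas another above the floor averaged 6.32 ± 0.12 in Cry DKO and 6.77 ± 0.10 in WT. That second probe set differed by -0.46, without overlap of the genotypes, and its adjusted p was 0.0372 when limma was run on every probe set. Adamtsl1 was the only 1 of the 15 members with several probe sets above the floor whose probe sets had mixed signs. Of 56 member probe sets above the floor, 12 were called in that fit, 11 lower and 1 higher, beside 1113 of all 16347 probe sets tested. The 12 include 4 of Timp2 and 2 of Mmp2, so they are not 12 separate genes.

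**Figure D2:**
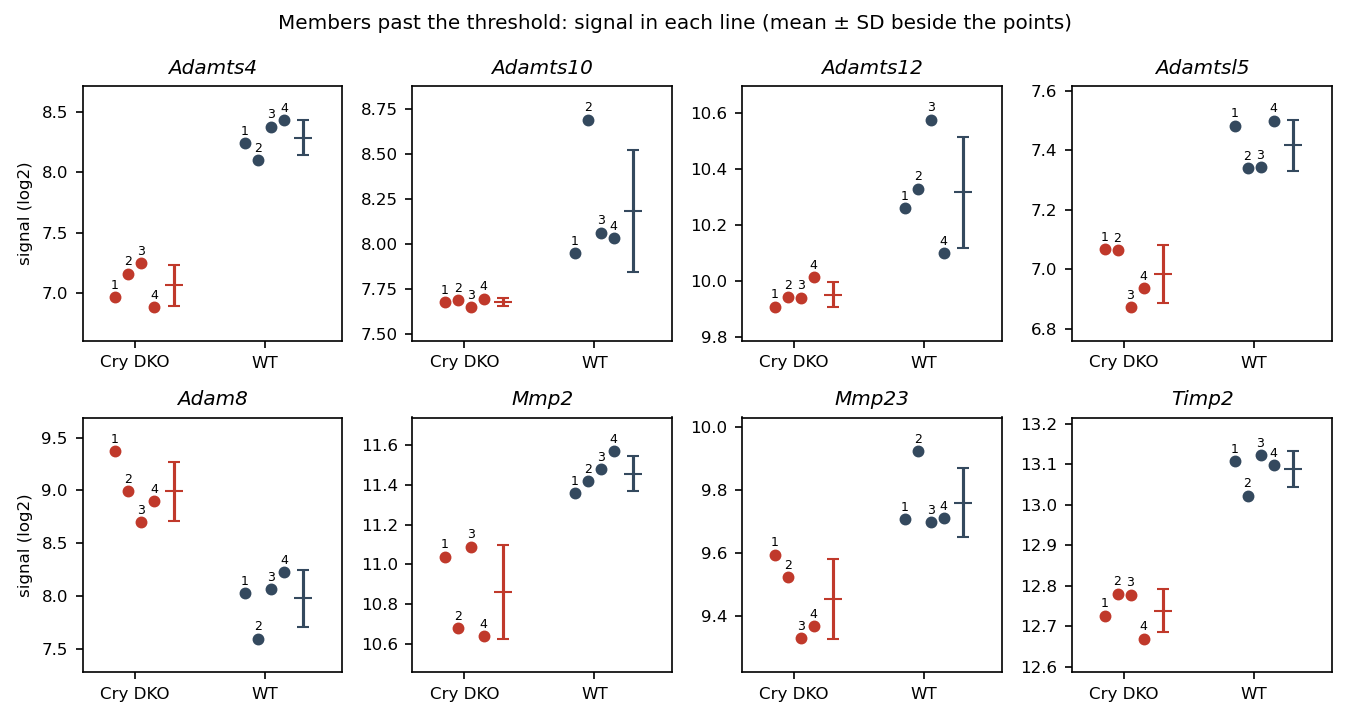
Log2 signal (y axes, 1 scale per gene) of the 8 called members in each Cry DKO (red, left) and WT (blue, right) line; points carry the line number, and the bar beside them is the mean ± SD of the 4 lines. Cry DKO and WT lines do not overlap in any of the 8 panels, and Adam8 is the panel in which the Cry DKO lines are the higher ones.

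ADAM proteases include the sheddases ADAM10 and ADAM17. Among the 8 tested, Adam8 rose, none fell and the median difference was 0.03. Adam8, a membrane protease best known from macrophages and other leukocytes, measured 9.37, 8.995, 8.70 and 8.90 in Cry DKO lines, against 8.03, 7.59, 8.06 and 8.23 in WT lines. Each Cry DKO line was above each WT line. The means were 8.99 ± 0.28 in Cry DKO and 7.98 ± 0.27 in WT (SD, n = 4 each), a difference of 1.01 (SE 0.15), or 2.02-fold higher, with an adjusted p of 0.00354 (limma). Leaving out any 1 line gave 0.89 to 1.11 with adjusted p-values of 0.00557 to 0.013. In place 25 by size among the 471 genes called higher, Adam8 was with Adamts4 the only tested member past 2-fold and past the threshold, in a table where 46 called genes were.

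Macrophage markers moved with Adam8. Of the 18, 10 rose and none fell, all 18 had a higher mean in Cry DKO, and their median difference was 0.76. Among the 4 of smallest p, Cd14, a lipopolysaccharide co-receptor, differed by 0.92, Lyz2, a lysozyme, by 0.83, Cd53, a leukocyte tetraspanin, by 0.92, and Csf1r, the receptor for CSF1, by 0.84 (adjusted p = 0.00302, 0.00423, 0.0126 and 0.0188 in limma). The mean of the list was 9.66, 9.21, 8.72 and 9.01 in Cry DKO lines, against 8.71, 8.08, 8.40 and 8.62 in WT lines. Cry DKO 1 was highest and WT 2 lowest both for that mean and for Adam8. The 4 Cry DKO lines had the same order in both, but the WT lines did not: WT 1 was the highest of them for the marker mean and lay below WT 3 and WT 4 for Adam8. With the marker mean as a covariate in limma, an alternative added after the data were seen, the Adam8 difference was 0.49 (adjusted p = 0.126), and 30 genes in all were called. The covariate itself differed between genotypes, by 0.70. The part of the macrophage markers in the Adam8 difference was not tested further.

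No other ADAM passed. Adam17, the main sheddase of TNF and of EGF receptor ligands, measured 9.07, 8.77, 8.77 and 8.78 in Cry DKO lines and 8.73, 8.77, 8.72 and 8.58 in WT lines. The lowest Cry DKO line lay just above the highest WT line, and the difference of 0.15 (SE 0.08) had an adjusted p of 0.290 in limma. Its other probe sets gave 0.23 and 0.09. Adam10, which cleaves Notch receptors and cadherins, differed by 0.05 (SE 0.06, adjusted p = 0.688). Adam9, Adam12, Adam15 and Adam19, membrane proteases with shedding activity, differed by -0.07, 0.09, -0.05 and -0.08, at adjusted p-values of 0.507, 0.422, 0.834 and 0.321 (limma). Adam23, a non-catalytic ADAM that binds LGI proteins, differed by 0.01 (adjusted p = 0.977 in limma), while another of its probe sets gave 0.39 without overlap of the genotypes (adjusted p = 0.102 in the fit of every probe set). That probe set passed the floor of 6.05 through its Cry DKO mean of 6.32. Its WT mean of 5.93 was below the floor, so the size of the difference is uncertain. Adam22, a related LGI receptor, was below the floor.

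Among the MMPs, 2 of the 7 tested fell and none rose, with a median difference of -0.31. Mmp2, or gelatinase A, digests basement membrane collagen and denatured collagen. It measured 11.04, 10.68, 11.09 and 10.64 in Cry DKO lines, against 11.36, 11.42, 11.48 and 11.57 in WT lines. No Cry DKO line reached the lowest WT line, and Cry DKO 2 and 4 were the lowest. The means of 10.86 ± 0.24 in Cry DKO and 11.46 ± 0.09 in WT gave a difference of -0.60 (SE 0.10), or 1.51-fold lower, with an adjusted p of 0.00602 (limma). Leaving out any 1 line gave -0.67 to -0.52 with adjusted p-values of 0.00563 to 0.0228, and the second probe set of Mmp2 gave -0.62. Mmp14, the membrane-type enzyme that activates pro-MMP2 in a complex with TIMP2, measured 12.49, 12.49, 12.30 and 12.33 in Cry DKO lines and 12.49, 12.56, 12.45 and 12.37 in WT lines. The genotypes overlapped, and the difference was -0.07 (SE 0.06, adjusted p = 0.534 in limma).

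Mmp23, a membrane-anchored MMP released by cleavage, measured 9.59, 9.52, 9.33 and 9.37 in Cry DKO lines, against 9.71, 9.92, 9.70 and 9.71 in WT lines. The genotypes did not overlap, although Cry DKO 1 came close to the WT lines. The difference was -0.31 (SE 0.08, adjusted p = 0.0360 in limma). Without Cry DKO 1 the adjusted p was 0.0290, and without any other single line the call was lost, at 0.0517 to 0.0935 with differences of -0.33 to -0.25. Its other probe set gave -0.10 (adjusted p = 0.578), and the mean of both probe sets gave -0.20 (adjusted p = 0.157).

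Mmp9, or gelatinase B, measured 6.58, 6.19, 5.96 and 4.96 in Cry DKO lines, against 7.21, 6.74, 6.82 and 6.50 in WT lines. Cry DKO 4 was far below the rest, and Cry DKO 1 lay inside the WT range. The difference of -0.89 (SE 0.29) had an adjusted p of 0.0828 in limma. Mmp9 lay above the floor through its WT lines alone: its mean was 5.92 in Cry DKO, below the floor of 6.05, and 6.82 in WT, so the size of the difference is uncertain. It passed without Cry DKO 1, at -1.11 with an adjusted p of 0.0405, and was -0.57 without Cry DKO 4. Mmp9 also passed with same-numbered lines treated as a block in limma. A dimmer probe set of Mmp9, below the floor and not tested, averaged 5.29 ± 0.47 in Cry DKO and 6.28 ± 0.14 in WT. The lines did not overlap there, but the Cry DKO level is below the floor, so no size is given. Mmp12, the macrophage elastase, measured 9.11, 8.34, 8.39 and 7.38 in Cry DKO lines, against 7.89, 7.19, 7.82 and 8.19 in WT lines. Cry DKO 1 was the highest of all lines and Cry DKO 4 lay within the WT range. The difference of 0.53 (SE 0.31) had an adjusted p of 0.316 in limma, and was -0.28 with the macrophage marker mean as a covariate.

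Mmp11, or stromelysin-3, measured 7.81, 7.33, 7.35 and 7.34 in Cry DKO lines and 7.82, 8.13, 7.78 and 7.45 in WT lines. It differed by -0.34 (adjusted p = 0.190), with Cry DKO 1 at the level of WT lines. Mmp16, another membrane-type MMP, differed by -0.30 (adjusted p = 0.150, both limma).

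**Figure D3:**
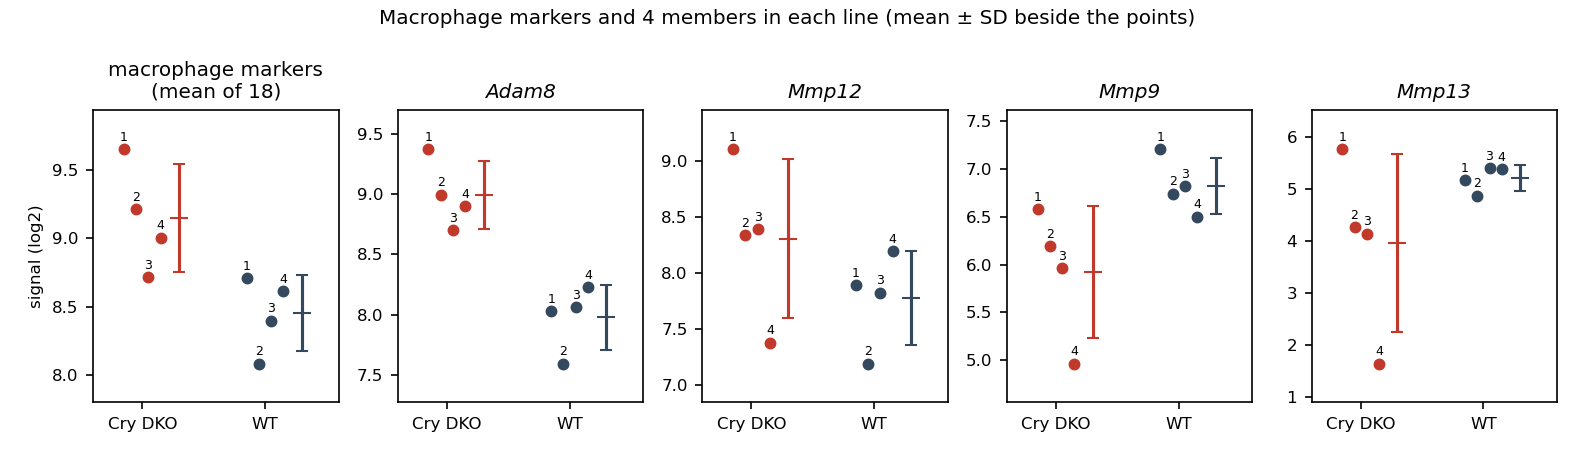
Log2 signal (y axes, 1 scale per panel) of the mean of 18 macrophage and blood cell markers and of Adam8, Mmp12, Mmp9 and Mmp13 in each Cry DKO (red, left) and WT (blue, right) line; points carry the line number and the bar is the mean ± SD of 4 lines. Cry DKO 1 is the highest Cry DKO line in all 5 panels, and Cry DKO 4 is the lowest Cry DKO line for the 3 MMPs but not for Adam8.

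Mmp13, Mmp12 and Mmp3 are neighbours in a cluster of MMP genes on chromosome 9, with Mmp10. Mmp13, or collagenase-3, was below the floor, at 5.77, 4.27, 4.14 and 1.63 in Cry DKO lines and 5.18, 4.87, 5.40 and 5.385 in WT lines. As for Mmp9 and Mmp12, Cry DKO 1 was the highest and Cry DKO 4 the lowest of the Cry DKO lines, which spread over a wider range than the WT lines (SD 1.72 in Cry DKO and 0.25 in WT). Mmp3, or stromelysin-1, was also below the floor, at 3.43, 2.71, 3.57 and 4.02 in Cry DKO lines and 4.35, 4.72, 4.42 and 4.81 in WT lines. There the groups did not overlap, and Cry DKO 4 was the highest of the Cry DKO lines. In these 3 genes the promoters carry the AP-1 motif TGAGTCA, the binding sequence of FOS and JUN dimers, close to the transcription start. The sequences are shown because the 3 neighbouring genes share this element. A link between the element and the signal of the lines was not tested. They are RefSeq windows on GRCm38.p6, 110 bases before to 10 after the start, all on the + strand, at chr9:7272404-7272523 for Mmp13, chr9:7347264-7347383 for Mmp12 and chr9:7445712-7445831 for Mmp3. Capitals mark the motif, which Mmp13 carries as its reverse complement TGACTCA.
Mmp13: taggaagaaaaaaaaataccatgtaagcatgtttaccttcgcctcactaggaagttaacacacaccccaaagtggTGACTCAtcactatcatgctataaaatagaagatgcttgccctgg
Mmp12: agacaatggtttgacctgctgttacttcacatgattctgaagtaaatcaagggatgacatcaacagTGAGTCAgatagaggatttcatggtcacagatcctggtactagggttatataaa
Mmp3: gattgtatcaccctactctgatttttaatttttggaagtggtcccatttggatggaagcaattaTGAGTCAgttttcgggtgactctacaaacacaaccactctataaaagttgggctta
Counted from the start, the motif begins at -35 in Mmp13, at -44 in Mmp12 and at -46 in Mmp3.

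Promoter windows of 250 bases before to 50 after a start were matched by symbol for 28 of the 42 members, 32 windows in all. On both strands, TGAGTCA was found in 5 of the 28 members, Mmp13, Mmp12, Mmp3, Mmp10 and Adam19, and in 5.95% of the 27025 genes with a window (5.20% of windows). The E-box CACGTG, which the clock activators repressed by cryptochromes bind, was found in Adam10 and Adam19, and in 8.09% of all genes (7.15% of windows). The D-box TTATGTAA was found in no member and in 1.11% of genes (0.938% of windows). A match is a description of these letters in this window, and no motif was found in the windows of the called members Adamts12, Adamtsl5, Adam8, Mmp23 and Timp2. The other called members, Adamts4, Adamts10 and Mmp2, had no window and were not searched. A list of AP-1, ETS and RUNX transcription factors included no called gene among 13 tested (limma, 1 with an unadjusted p under 0.05), with a median difference of 0.09.

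Among the inhibitors, Timp2 fell and the other 3 did not pass, with a median difference of -0.22. Timp2, which inhibits MMPs and takes part in pro-MMP2 activation, measured 12.73, 12.78, 12.78 and 12.67 in Cry DKO lines, against 13.11, 13.02, 13.12 and 13.10 in WT lines. All Cry DKO lines lay below all WT lines, and the lines within each genotype were close together. The means of 12.74 ± 0.05 in Cry DKO and 13.09 ± 0.04 in WT gave a difference of -0.35 (SE 0.04), or 1.27-fold lower, with an adjusted p of 0.00156 (limma). Leaving out any 1 line gave -0.37 to -0.33 with adjusted p-values of 0.00209 to 0.00887. Of its 5 probe sets, 4 passed in the fit of every probe set, with differences of -0.38 to -0.30, and the remaining one gave -0.31 (adjusted p = 0.236).

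Timp3, the matrix-bound inhibitor that also blocks ADAM17 and aggrecanases, measured 10.91, 10.84, 10.78 and 10.62 in Cry DKO lines, against 11.10, 10.88, 11.42 and 11.14 in WT lines. Only WT 2 lay within the Cry DKO range. The difference of -0.35 (SE 0.10) had an adjusted p of 0.0536 in limma, and leaving out WT 2 gave -0.43 with an adjusted p of 0.0285. Timp3 also passed with array weights and with same-numbered lines treated as a block. Its 4 probe sets gave -0.29, -0.31, -0.04 and -0.35, none of which passed. Timp1, the serum- and growth factor-inducible inhibitor, differed by -0.08 (SE 0.05, adjusted p = 0.301), and Reck, the membrane-anchored inhibitor of MMPs, by 0.08 (SE 0.15, adjusted p = 0.777, both limma). For Reck, Cry DKO 4 at 8.49 was the highest of all lines.

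**Figure D4:**
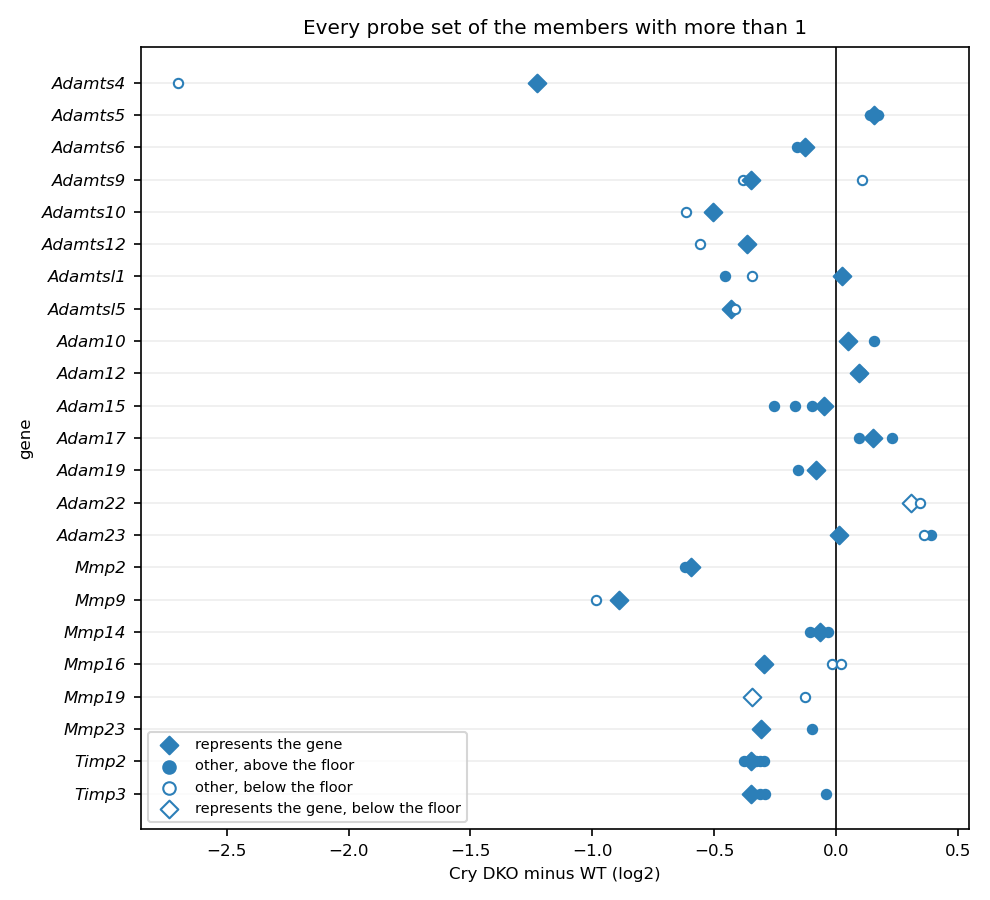
Difference in log2 signal, Cry DKO minus WT (x axis), of every probe set of the 23 members with more than 1 (rows); diamonds stand for the gene, circles are its other probe sets, and open symbols lie below the floor of 6.05. The probe sets of Timp2 and Mmp2 lie together on the lower side, and those of Adamtsl1 lie on both sides of 0.

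Adam8 and Timp2 kept their calls on leaving out any 1 line, in opposite directions, and both had a promoter window. These are printed to show how unlike the start regions are in CG dinucleotides, which are marked in capitals. Both are RefSeq windows of 300 bases on GRCm38.p6 on the - strand, at chr7:139992513-139992812 for Adam8 and chr11:118355362-118355661 for Timp2.
Adam8: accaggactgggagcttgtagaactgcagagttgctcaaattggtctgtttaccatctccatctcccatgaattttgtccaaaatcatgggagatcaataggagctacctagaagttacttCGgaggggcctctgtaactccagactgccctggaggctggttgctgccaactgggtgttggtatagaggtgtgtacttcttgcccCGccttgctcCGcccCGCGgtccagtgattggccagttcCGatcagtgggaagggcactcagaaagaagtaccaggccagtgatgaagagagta
Timp2: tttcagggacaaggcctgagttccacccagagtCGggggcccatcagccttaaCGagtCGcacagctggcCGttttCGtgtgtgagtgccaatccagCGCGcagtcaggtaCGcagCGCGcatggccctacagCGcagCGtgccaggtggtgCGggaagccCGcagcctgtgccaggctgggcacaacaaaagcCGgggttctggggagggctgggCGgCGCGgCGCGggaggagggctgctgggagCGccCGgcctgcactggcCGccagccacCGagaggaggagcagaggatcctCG
The Adam8 window held 6 CG dinucleotides at a GC content of 52.3%, and the Timp2 window 25 at 68.7%. This is 1 gene for each direction, and a link between CG content and direction was not tested.

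The 7 members below the floor were not tested with the others, and the sizes of their differences are uncertain at such signal. In a limma fit without the floor, in which 5.97% of 13307 genes were called, none of the 7 passed and 2 had an unadjusted p under 0.05, Adamts7 and Mmp3. Adamts7, a relative of Adamts12, measured 5.38, 5.09, 5.12 and 4.90 in Cry DKO lines, against 4.39, 4.68, 4.39 and 4.77 in WT lines. Its groups did not overlap, with a difference of 0.56 (adjusted p = 0.154 in limma), and that of Mmp3 was -1.14 (adjusted p = 0.0643). Mmp13 differed by -1.26 (adjusted p = 0.294), and Mmp19 by -0.34 (adjusted p = 0.341). Adamts3, a procollagen and VEGFC processing protease, differed by 0.44, Adam22 by 0.31 and the versican-cutting Adamts15 by 0.01. SDs among these dim members ran from 0.14 to 1.72 in Cry DKO and from 0.10 to 0.79 in WT, with a median within-group SD of 0.41, against 0.15 for the tested members.

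**Figure D5:**
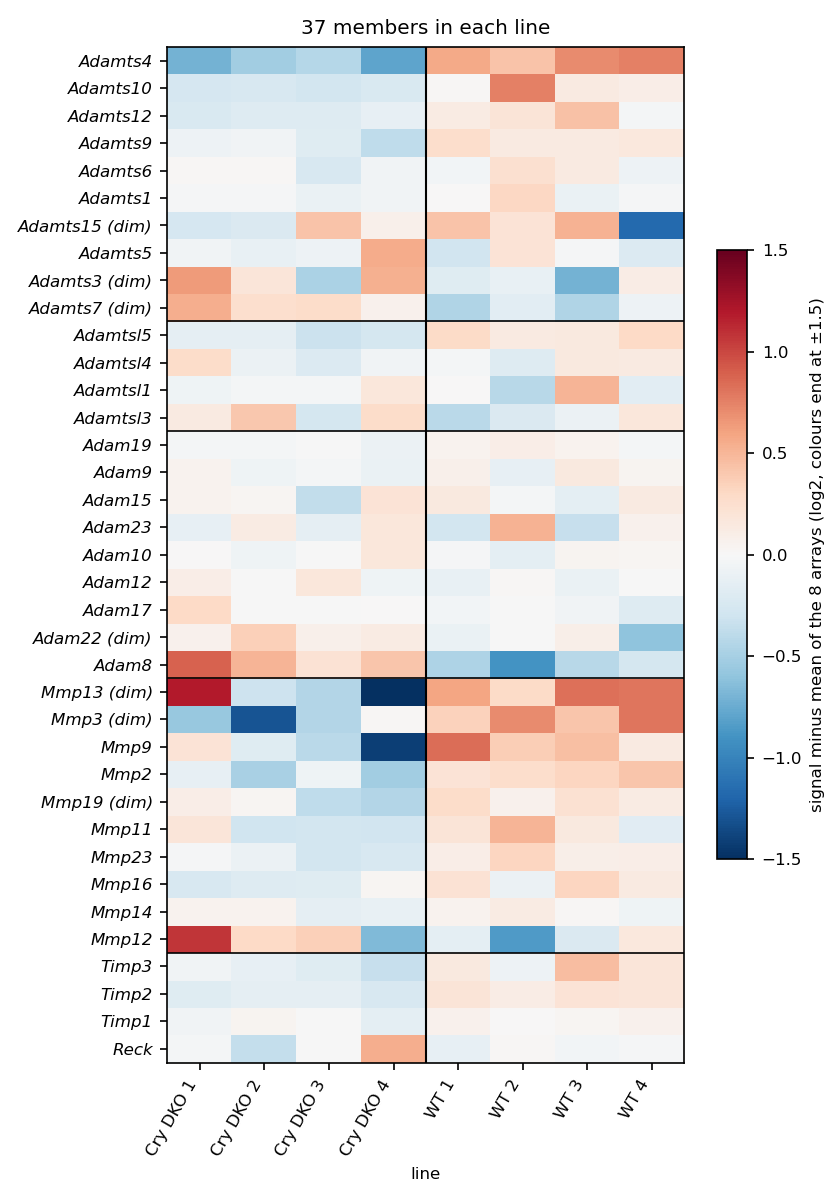
Log2 signal of the 37 members minus each gene's mean over the 8 arrays (colour, red above and blue below the mean, ending at 1.5 either way), with lines as columns, Cry DKO left of WT, and genes as rows by family; "dim" marks the 7 members below the floor. Adamts4 and Timp2 are below their mean in all Cry DKO lines, while Mmp9, Mmp12 and Mmp13 differ most among the Cry DKO lines themselves.

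Cry DKO lines also varied among themselves. Cry DKO 1 was the highest of the Cry DKO lines in 16 of the 37 members and the lowest in 5. Cry DKO 3 was the lowest in 13 and Cry DKO 4 in 14, and Cry DKO 4 was also the highest in 10. Among the WT lines, WT 2 was the lowest in 14 and the highest in 12. SDs of the tested members ran from 0.02 to 0.71 in Cry DKO and from 0.03 to 0.42 in WT.

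Markers of other cell types were compared in the same way. Of 7 tested smooth muscle markers, 2 fell and none rose, with a median of -0.21. Myh11, smooth muscle myosin, differed by -0.85 (adjusted p = 0.00493) and Lmod1, leiomodin, by -0.44 (adjusted p = 0.0478, both limma), and the Lmod1 call was lost without WT 1, 2, 3 or 4 or Cry DKO 3 or 4 (adjusted p 0.0760 to 0.129). The smooth muscle mean ran from 10.66 to 10.74 in Cry DKO and from 10.83 to 11.14 in WT, without overlap, as for the called lower members. Of 10 tested fibroblast markers, 1 fell, Col5a1, a fibrillar collagen, by 0.16 (adjusted p = 0.0320 in limma), a call lost without any line but WT 4. The fibroblast median was -0.12, and the mean ran from 12.59 to 12.83 in Cry DKO and from 12.78 to 12.94 in WT. Their part in the lower members was not tested. No endothelial marker lay above the floor (0 of 5 with a probe set), the 1 tested epithelial marker differed by -0.30, and the 2 tested cartilage and bone markers, neither of them called, had a median of 0.33.

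Genes around the proteases were compared by lists of their relatives, activators and substrates. Of 33 other ADAM, ADAMTS, MMP and TIMP genes, 8 had a probe set and 1, Mmp17, was tested, at -0.45 (adjusted p = 0.0768 in limma). Of 8 tested other matrix and pericellular metalloproteases, 1 fell and none rose, with a median of -0.16. That gene was Pappa, a protease of IGF-binding proteins, at -0.44 (SE 0.08, adjusted p = 0.0101 in limma). Of 18 tested activators, plasmin system members and serpins, 1 fell and none rose, with a median of -0.11. It was Plat, the tissue plasminogen activator, at -0.44 (SE 0.11, adjusted p = 0.0334 in limma), and its call was lost without WT 2 or 4 or Cry DKO 1, 2 or 3 (adjusted p 0.0583 to 0.0929).

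Of 17 tested proteoglycan and matrix substrates, 1 rose and 4 fell, with a median of -0.07, beside the background of 4.95% higher and 4.22% lower. The lists were not tested against each other, and 3 of these 5 calls were lost on leaving out single lines. The basement membrane collagens Col4a1 and Col4a2, which MMP2 and MMP9 can digest, differed by -0.33 and -0.44 (adjusted p = 0.00802 and 0.00913 in limma). Fbn2, the fibrillin of embryonic microfibrils, differed by -0.68 (adjusted p = 0.0221), a call lost without WT 1 or Cry DKO 2 or 3 (adjusted p 0.0521 to 0.0540). Vcan, the proteoglycan versican that ADAMTS proteases cut, rose by 0.37 (adjusted p = 0.0426 in limma). That call was lost without any line but WT 2 (adjusted p 0.0537 to 0.115), and the mean of the Vcan probe sets gave 0.29 (adjusted p = 0.184). The other called gene of the list, Hspg2, named after its value was seen and encoding the basement membrane proteoglycan perlecan, differed by -0.23 (adjusted p = 0.0468 in limma). Its call was lost without any line but Cry DKO 1 (adjusted p 0.0759 to 0.127) and, at 0.0544, without the floor filter. Of 21 tested membrane proteins shed by ADAMs, 1 fell and none rose, with a median of -0.04. It was Jag1, a Notch ligand, at -0.33 (adjusted p = 0.0132 in limma), beside Notch1, Notch2 and Notch3 at -0.04, 0.09 and -0.01, none of which passed.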

How the data were processed

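RNA of 4 Cry DKO and 4 WT lines of primary MEFs was hybridised to Affymetrix arrays, 1 per line, from 5 ug of total RNA, per the labels' protocols. The deposited values are taken as log2 signals made by the authors. The base was inferred from their range (0.0675 to 14.3), and every fold rests on it. GCOS is named in the submitters' processing notes, but a method for probe summarisation or array normalisation was not given in the sources used here. Array medians (6.78 to 6.79) nearly coincide, so values were used as deposited, and a change in total RNA per cell would not show. No 2 arrays were identical.

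Of 30506 probe sets, 61 controls, 658 with several genes and 4949 unnamed here were left out. Symbols came from the platform's annotation and from RefSeq (GRCm38.p6, 24757 of 24838 gene identifiers found), whose gene positions served only to find the genes within 10 Mb of Cry1 or Cry2 and which also supplied the promoter windows with their coordinates. Genotypes were compared over 9515 genes above the floor by limma (version 3.58.1, R version 4.3.3) with a trend on intensity, no covariate, Benjamini-Hochberg adjustment and a threshold of 0.05, and the code was tested on simulated data. Each p-value rests on the spread among independent lines of a genotype, with the variance moderated by limma towards an intensity trend over all tested genes. All members are reported, with called genes of other lists, up to 4 of smallest p. The members and lists were chosen with earlier results of these data known. Fits that left out a line kept the same probe sets. Arrays have no counts, so their number limits the precision.

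Alternatives changed the floor, scaling, trend, moderation, array weights, probe set choice, replicate block, threshold and the lines included.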

Additional observations from a re-analysis of the deposited data

Results flagged for a closer look

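A line was looked for that stood far from the other 3 of its genotype (by Dixon's test), in 37 members and 2 genotypes. Of 74 such groups, 7 held one, and chance alone marks about 1 in 20. All 7 were the highest of their 4 lines. In Cry DKO 4, Adamts5 was 10.42 (the next line 9.81) and Adamtsl1 was 6.92 (the next 6.71). In Cry DKO 1, Adam17 was 9.07 (the next 8.78) and Mmp11 was 7.81 (the next 7.35). In WT 2, Adamts10 was 8.69 (the next 8.06) and Mmp23 was 9.92 (the next 9.71), both among the called members. In WT 1, Adamts9 was 6.66 (the next 6.55).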

How the results depend on the processing

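Of the 176 values of the 8 called members under the alternatives, 131 kept their direction and stayed past the threshold, 45 kept their direction only, and 0 reversed. Alternatives of floor, trend, moderation, block or threshold leave the difference itself unchanged, so they could not reverse it. A threshold of 0.1 could not lose a call. The counts therefore describe the alternatives and are no measure of robustness. Adamts4, Timp2, Adam8 and Mmp2 kept their calls on leaving out any 1 line. Over all genes, 873 were called, and 317 without moderation of the variance, 30 with the macrophage marker mean as a covariate, 210 at an adjusted p of 0.01 and 1436 at 0.1. Leaving out 1 line gave 382 to 684. The 1 higher and 7 lower members became 0 and 3 without moderation, 0 and 1 with the covariate (Adamts4 alone) and 1 and 3 at 0.01. With the covariate the differences were -0.61 for Mmp2, -0.59 for Adamtsl5, -0.37 for Timp2 and -0.37 for Mmp23, no smaller than without it. They were smaller for Adam8 (0.49), Adamts12 (-0.27), Adamts10 (-0.25) and, slightly, Adamts4 (-1.21). The covariate itself differed between genotypes, by 0.70, and the part of the macrophage markers in any of these differences was not tested. Leaving out 1 line gave 3 to 6 lower members and 1 higher. Quantile scaling and centring on medians left the counts at 1 and 7. With the replicate number as a block, 1050 genes, 1 higher and 9 lower members were called, Timp3 (adjusted p = 0.0483) and Mmp9 (0.0209) among them in limma. Residuals of same-numbered lines correlated at 0.36, 0.12, 0.23 and -0.01, best with the same number in 3 of the 4. The labels state no pairing, so the main fit used none, and whether the numbers mark pairs is not known.

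For the 22 members not called, 453 of 480 values kept side and direction, 9 passed and 18, in 8 genes, changed sign. Here too, many alternatives could not change the sign, and a threshold of 0.01 could not add a call. Adamtsl1 (0.02) was -0.0303 with array weights, -0.0340 with the covariate and -0.22 as the mean of its probe sets, and Mmp12 (0.53) was -0.28 with the covariate. On leaving out 1 line, Adamts5 ran from -0.0009 to 0.25, Adamtsl1 from -0.11 to 0.20, Adamtsl4 from -0.13 to 0.0274, Adam10 from -0.0007 to 0.0780, Adam15 from -0.12 to 0.0676, Adam23 from -0.10 to 0.19 and Reck from -0.0852 to 0.21. The cause of these changes was not tested. Dim probe sets limit precision: the median within-group SD was 0.13 over all tested genes and 0.41 for the members below the floor.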
